A study of Gallus gallus with 23 samples.

Results

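Growth plate cartilage of the embryonic chick hindlimb was compared between embryonic day (E) 13 and E12. The material was the distal end of the femur and the proximal end of the tibiotarsus (TBT, called tibia in the sample labels). Comprising 6 E13 arrays (3 femur and 3 TBT) and 6 E12 arrays (3 femur and 3 TBT), the comparison used 12 of the 23 arrays of the series. It was chosen by age and treatment alone, so no measured value decided which arrays entered. All 12 arrays came from vehicle-treated, freely moving control embryos of Gallus gallus, in a study that elsewhere immobilised embryos. No immobilised or E15 array entered the main fit. Those arrays did count towards the filter on spread given below, which was taken over all 23 arrays, and entered an alternative fit. Each array carried total RNA from cartilage pooled over several embryos, and the labels do not say whether a femur and a TBT of the same number came from the same embryos. The cartilage was dissected and homogenised whole, so a value is an average over all growth plate zones and over any vessel, periosteum or muscle left on the piece.

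The values are log2 signals per probe set, and a difference of 1 on this scale is a doubling. Array medians lay between 5.78 and 5.85. Several genes named below, among them HOXC10, CHAC1, MYBPC3 and RGS5, had mean levels under these medians. Pearson's r over the 11004 probe sets past a filter on spread (standard deviation above 10 on the linear scale) was 0.957 to 0.980 between arrays of different stages and 0.962 to 0.983 within groups. The tissue label was borne out by cartilage genes: ACAN, which encodes the proteoglycan aggrecan, lay at 12.49 to 12.62 at E13 and at 12.49 to 12.62 at E12, and the matrilin MATN1 at 12.84 to 12.99 at E13 and 12.89 to 13.05 at E12. COL2A1, IHH and PTHLH are not analysed here, since no probe set carries these symbols alone in the annotation used. The label of each array also ends in a code, 05, 07 or 09, whose meaning is not stated. Code 05 stood on 0 E13 arrays and on 3 E12 arrays (femur replicates 1 and 2 and TBT replicate 2), and code 07 on 4 E13 arrays and 1 E12 array. Code 09 stood on 2 E13 and 2 E12 arrays, so that stage and code are partly confounded over the 12 arrays. In the femur they are fully confounded. All 3 E13 femur arrays carry code 07, while the E12 femur arrays carry code 05 (2 arrays) or 09 (1 array).

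As background, long bones of the chick grow from a cartilage model in which chondrocytes divide in columns, leave the cell cycle, enlarge as hypertrophic chondrocytes and calcify their matrix. Hypertrophic cells secrete collagen X, the collagenase MMP13 and the vascular growth factor VEGFA, and vessels, bone-forming cells and matrix-degrading cells rich in the gelatinase MMP9 then enter the calcified zone. Skeletal muscle and tendon insert close to the growth plate and develop at the same time, which is why their transcripts were followed here too.

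Stage differences were small. With stage and skeletal element in a limma fit over the 12 arrays (9 residual degrees of freedom), 0 of 11004 probe sets (0%) passed an adjusted p of 0.05 between E13 and E12. The lowest adjusted p, 0.110, was shared by 3 probe sets, MMP9 and 2 without a gene symbol. At an unadjusted p under 0.05 there were 859 probe sets (7.81%), of which 452 (4.11%) were higher at E13 and 407 (3.7%) lower. The gene lists below draw on 7122 genes with 1 symbol, each read from 1 probe set. Of these, 3248 (45.6%) had a positive and 3823 a negative difference, with a median of -0.01. At such a p 195 of them were higher and 283 lower (6.71% together). All 6 E13 arrays lay above all 6 E12 arrays for 16 probe sets (0.145%) and below them for 20 (0.182%). The median size of a difference was 0.07 log2 units and 1 in 100 exceeded 0.72. Since no gene was called, the values that follow are differences with their standard errors (SE), and adjusted p-values are from limma by the Benjamini-Hochberg method over all 11004 probe sets.

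MMP9, the named gene nearest to a call, belongs to the remodelling end of the growth plate. It had log2 values of 8.94, 9.23 and 9.41 in E13 femur and 9.62, 9.84 and 9.77 in E13 TBT, against 8.54, 8.37 and 8.58 in E12 femur and 8.66, 9.26 and 9.03 in E12 TBT. Within each element every E13 array stood above every E12 array, and the stages overlapped only where E12 TBT met E13 femur. The difference was 0.73 ± 0.11 (SE), or 1.66-fold, with an adjusted p of 0.110. A second MMP9 probe set differed by 0.78 ± 0.14, with an adjusted p of 0.245. MMP13 ran at 9.65, 10.54 and 10.85 (lowest, median and highest) at E13 and at 9.28, 9.86 and 10.38 at E12. This is a difference of 0.55 ± 0.14 (adjusted p = 0.328), with 4 of 6 E13 arrays above the highest E12 array.

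Among prehypertrophic and hypertrophic chondrocyte genes, 22 of the 29 measured had a positive difference and 7 a negative one, with a median of 0.08 against -0.005 over all probe sets. That median ran from 0.04 without E12 TBT replicate 3 to 0.16 without E12 femur replicate 1, and was 0.17 without the arrays coded 05. The mean level of the list was 8.60 to 8.86 at E13 and 8.42 to 8.77 at E12. Of these genes 7 (24.1%, against 6.71% of all genes with 1 symbol) had an unadjusted p under 0.05, all with higher values at E13. They were MMP9, MMP13, TGM2, ENPP1, VEGFA, IBSP and ALPL, the last pair named after their values were seen. TGM2, a transglutaminase that cross-links matrix proteins, had a median of 7.53 at E13 and 7.09 at E12 (difference 0.38 ± 0.11, adjusted p = 0.375). ENPP1 makes pyrophosphate, an inhibitor of mineral formation, and 5 of 6 E13 arrays (7.38 to 7.95) lay above the E12 range of 7.18 to 7.52 (0.34 ± 0.10, adjusted p = 0.402). VEGFA lay at 7.93 to 8.53 at E13 and 7.78 to 8.31 at E12, a difference of 0.34 ± 0.12 with an adjusted p of 0.519. IBSP, which encodes the mineral-binding bone sialoprotein, differed by 0.41 ± 0.14, and ALPL, the alkaline phosphatase needed for mineralisation, by 0.33 ± 0.14.

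The classical hypertrophic marker COL10A1 did not follow as tightly. Its values were 10.34, 10.81 and 11.33 in E13 femur and 11.13, 11.50 and 11.63 in E13 TBT, against 10.78, 9.05 and 10.54 in E12 femur and 11.36, 11.27 and 11.02 in E12 TBT. The stages overlapped in both elements, and the low value of 9.05 belonged to a single E12 femur array (replicate 2, coded 05). The difference of 0.45 ± 0.28 had an adjusted p of 0.777 and was 0.19 without that array. SPP1, which encodes the matrix phosphoprotein osteopontin, differed by 0.29 ± 0.22, at -0.06 in the femur and 0.64 in the TBT (adjusted p of the interaction = 1, limma). Osteoblast and periosteum genes had 10 positive and 6 negative differences among 16, with a median of 0.04 (0.01 without E12 TBT replicate 3 and 0.09 without E12 TBT replicate 2). DMP1, which encodes an acidic protein of mineralising matrix, had 4 of 6 E13 arrays (5.96 to 6.53) above all E12 arrays (5.32 to 6.12) and differed by 0.54 ± 0.14 (adjusted p = 0.328). In this list 1 gene, DMP1, had an unadjusted p under 0.05 with higher values at E13, and 1, TWIST2, with lower values (-0.41 ± 0.10). Together they are 12.5% of the list, against 6.71% of all genes with 1 symbol.

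**Figure D1:**
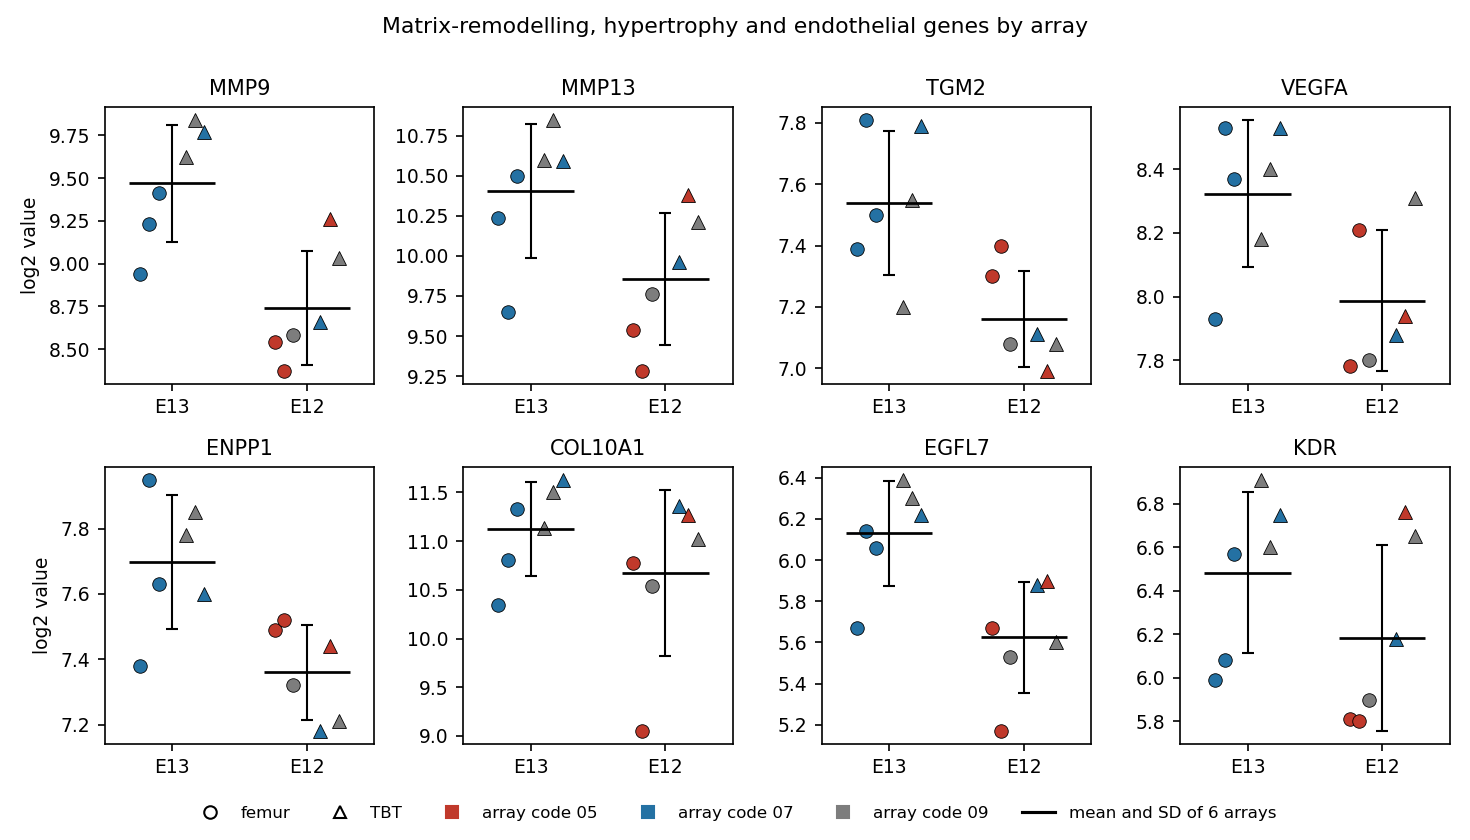
Log2 values (y axis) of 8 genes of matrix remodelling, hypertrophy and endothelium in the 6 E13 arrays (left) and the 6 E12 arrays (right) of each panel, with circles for femur, triangles for TBT, colours for the array code, and bars for the mean and SD of 6 arrays. In MMP9 the E13 values (8.94 to 9.84) lie above the E12 values (8.37 to 9.26) within each element, while COL10A1 at E12 has a single low femur array at 9.05.

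Vascular genes were higher at E13 by small amounts. Of 18 endothelial genes measured, 17 had a positive and 1 a negative difference, with a median of 0.12 (0.21 without E13 femur replicate 1). An unadjusted p under 0.05 was found for 4 of them (22.2%, against 6.71% of all genes with 1 symbol). EGFL7, a protein that endothelial cells secrete, ran at 5.67, 6.18 and 6.39 (lowest, median and highest) at E13 and at 5.17, 5.63 and 5.90 at E12. All E13 arrays but E13 femur replicate 1 lay above the E12 range, and the difference was 0.51 ± 0.11 (adjusted p = 0.326), with 0.50 in the femur and 0.51 in the TBT. KDR, the main receptor for VEGFA, had a median of 6.58 at E13 and 6.04 at E12, and differed by 0.30 ± 0.12 (adjusted p = 0.569). VWF, the von Willebrand factor, differed by 0.37 ± 0.15, and the endothelial transcription factor ETS1 by 0.18 ± 0.06. The exception was PECAM1, an adhesion molecule of endothelium and blood cells, at 7.65 to 8.29 at E13 and 7.67 to 8.73 at E12 (-0.30 ± 0.17, adjusted p = 0.757), named after its values were seen. The mean level of the endothelial list overlapped between the stages, at 6.79 to 7.50 at E13 and 6.92 to 7.41 at E12, with the lowest value in E13 femur replicate 1.

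Pericyte and smooth muscle genes had 6 positive and 3 negative differences, with a median of 0.13 (0.07 without E12 femur replicate 2). RGS5, a regulator of G-protein signalling that marks pericytes, had 5 of 6 E13 arrays (5.25 to 6.05) above all E12 arrays (4.86 to 5.54), and differed by 0.50 ± 0.13 (adjusted p = 0.352). KCNJ8, a potassium channel of pericytes, differed by 0.24 ± 0.09, PDGFRB, the platelet-derived growth factor receptor of mural cells, by 0.14 ± 0.09, and MYLK, the myosin light chain kinase of smooth muscle, by -0.25 ± 0.11. MMP9 is also made by osteoclasts and leukocytes, and of the 13 genes listed for those cells, MMP9 among them, 8 had a positive and 5 a negative difference (median 0.05, and -0.02 without E13 femur replicate 3). Their mean level was 6.08 to 6.51 at E13 and 6.14 to 6.55 at E12. TNFRSF11A, the receptor RANK that drives osteoclast formation, differed by -0.13 ± 0.08, and SPI1, the transcription factor PU.1 of the myeloid lineage, by -0.19 ± 0.12. Both are among the 5 negative ones, with an unadjusted p (limma) of 0.155 for TNFRSF11A and 0.140 for SPI1. The positive genes other than MMP9 are not described singly, so these genes do not stand for the list. The part of osteoclasts in the MMP9 difference was not tested. Erythroid genes had 2 positive and 9 negative differences (median -0.15), led by the embryonic globin HBE at 5.36 to 6.65 at E13 and 5.74 to 7.06 at E12 (-0.56 ± 0.28, or -0.29 with the array code as a block).

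Most muscle transcripts past the filter had lower means at E13. The array holds 53 skeletal muscle fibre genes of the list, of which 35 passed the filter on spread. Of these 35, 31 had a negative and 4 a positive difference, with a median of -0.32. An unadjusted p under 0.05 was found for 16 (45.7%, against 6.71% of all genes with 1 symbol), all lower. The list's mean level was 6.24 to 6.70 at E13 and 6.36 to 7.02 at E12, with 2 E12 arrays reaching into the E13 range (TBT replicate 1 and femur replicate 1). In tissue homogenised whole, fewer cells of a type and less RNA per cell cannot be told apart. ACTC1, the cardiac actin that embryonic skeletal muscle also makes, ran at 8.99, 9.05 and 9.52 (lowest, median and highest) at E13 and at 9.45, 9.77 and 10.17 at E12. Only E13 femur replicate 3 reached into the E12 range, and the difference was -0.61 ± 0.13 (adjusted p = 0.326). OCM3, a calcium-binding protein of the parvalbumin family, ran at 6.86, 7.30 and 8.01 at E13 and at 7.82, 8.09 and 8.64 at E12. Here too 5 of 6 E13 arrays lay below every E12 array, with a difference of -0.79 ± 0.17 (adjusted p = 0.326).

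MYBPC3, a myosin-binding protein, differed by -0.73 ± 0.20 (adjusted p = 0.362), and SMYD1, a methyltransferase needed to build sarcomeres, by -0.49 ± 0.14 (adjusted p = 0.377). The skeletal actin ACTA1 differed by -0.27 ± 0.12 (adjusted p = 0.640), with 2 of 6 E13 arrays below the E12 range. Regulators of muscle differentiation went the same way, with 0 positive and 6 negative differences. Only these 6 of the 12 regulators on the array passed the filter. EYA1, a co-factor that acts early in muscle precursors and in other organs, had a median of 7.57 at E13 and 8.12 at E12 (-0.71 ± 0.16, adjusted p = 0.326). MYOD1, the transcription factor that commits cells to muscle, had a median of 6.14 at E13 and 6.67 at E12 (-0.49 ± 0.16, adjusted p = 0.448). With the array code as a block, the fibre list had a median of -0.33. Within code 07 alone it was 0.22, and within code 09 alone -0.68. These within-code values rest on few arrays, with 1 E13 TBT array against 1 E12 TBT array for code 07, and 2 E13 TBT arrays against 1 E12 TBT array for code 09.

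**Figure D2:**
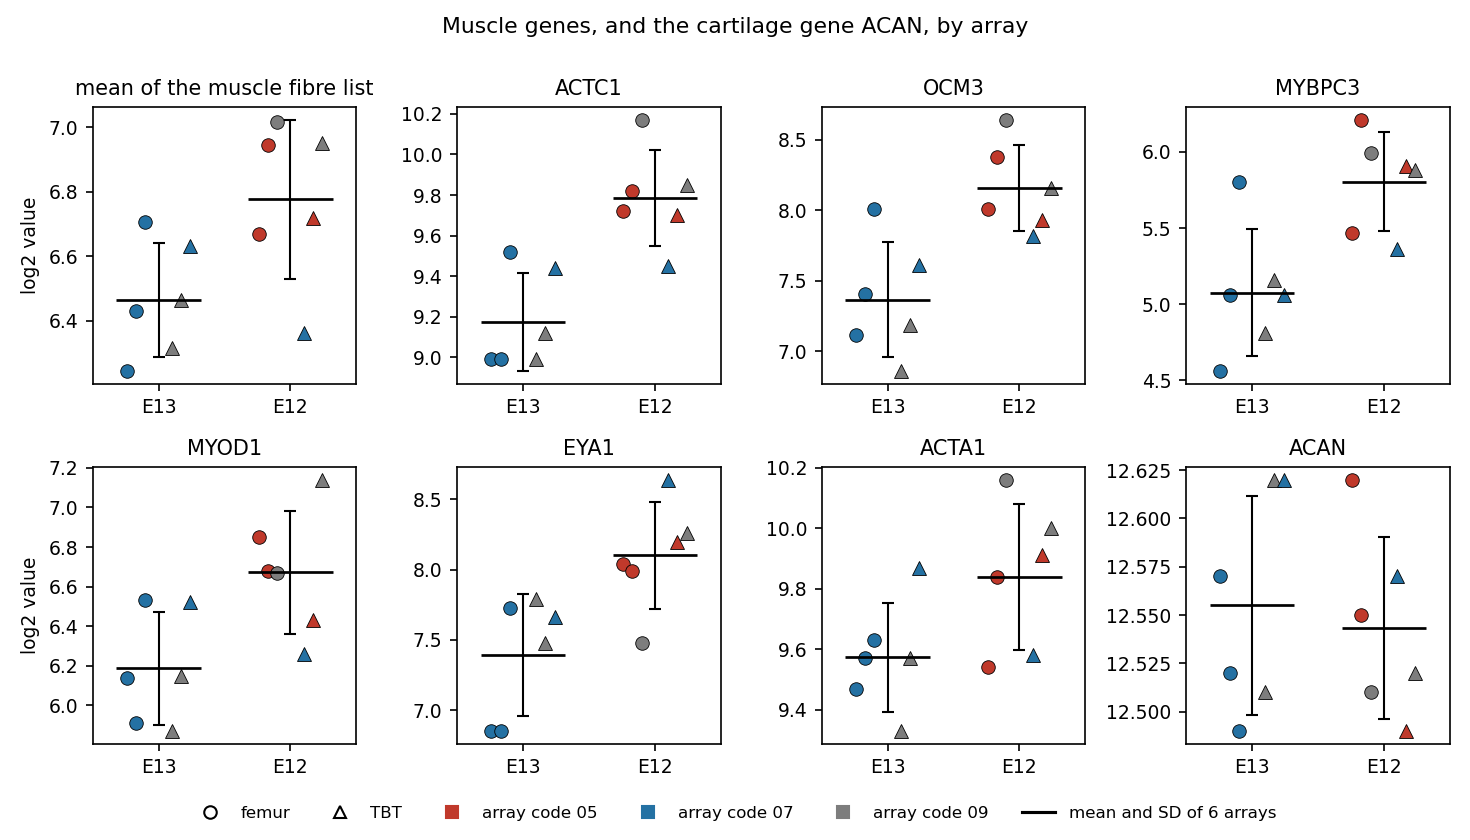
Log2 values (y axis) of the muscle fibre list's mean, 6 muscle genes and the cartilage gene ACAN in the 6 E13 arrays (left) and 6 E12 arrays (right), with circles for femur, triangles for TBT, colours for the array code, and bars for the mean and SD of 6 arrays. In ACTC1 and OCM3, 5 of 6 E13 arrays lie below all E12 arrays, whereas in ACAN both stages span 12.49 to 12.62 on a much narrower axis.

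The study names 13 genes in a list that its text ties to the stages and the list's own heading to the elements. It was read here as a stage list. Its genes passed the study's significance analysis of microarrays (SAM), whereas the limma fit called no gene. SAM as rewritten here called 2 probe sets at an estimated false discovery rate of 0, both higher at E13, and so none of the genes below. The study's methods name other preprocessing software (aroma.affymetrix), their own probe annotation and more permutations, so more than the test differs. NRIP3 and SRL are not analysed here, and OCM3 stands for OCM2, a synonym in RefSeq. The 11 genes measured all had a negative difference, with a median of -0.19 and an unadjusted p under 0.05 for each. As the list was drawn from these same arrays, this count is no independent evidence of direction. Besides ACTC1 and OCM3 it holds BTF3L4 (a relative of a basal transcription factor), the protease BLMH, RAB10 (a small GTPase of vesicle transport), HMGB3 (a chromatin protein of proliferating cells), MAP1B (a microtubule-binding protein best known from neurons), SCUBE2 (which releases hedgehog ligands from cells), SRP68 (part of the particle that brings nascent proteins to the endoplasmic reticulum), IGF2BP3 and BZW2. In 4 of them the stages did not overlap, against 20 of all 11004 probe sets (0.182%) that lay lower at E13 without overlap. This count too rests on a list drawn from these same arrays, so it is no independent evidence. BTF3L4 lay at 8.79 to 9.0 at E13 and 9.03 to 9.17 at E12 (-0.20 ± 0.05), and BLMH at 9.48 to 9.63 at E13 and 9.69 to 9.88 at E12 (-0.20 ± 0.05). RAB10 lay at 9.16 to 9.37 at E13 and 9.40 to 9.54 at E12 (-0.19 ± 0.05), and HMGB3 at 10.41 to 10.58 at E13 and 10.62 to 10.76 at E12 (-0.15 ± 0.04). Adjusted p-values of these genes ran from 0.326 to 0.375. MAP1B had the largest difference outside muscle, -0.38 ± 0.11, with 3 of 6 E13 arrays below the E12 range. SCUBE2 differed by -0.19 ± 0.06, BZW2 by -0.13 ± 0.05, IGF2BP3 by -0.13 ± 0.05 and SRP68 by -0.12 ± 0.04.

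Of the 36 probe sets without overlap, 18 carry a gene symbol, 4 with higher and 14 with lower values at E13. CHAC1, an enzyme that degrades glutathione and is induced by amino acid and endoplasmic reticulum stress, lay at 5.11 to 5.95 at E13 and 4.51 to 5.06 at E12, and differed by 0.67 ± 0.14 (adjusted p = 0.326). The other genes on the higher side were SSPN (sarcospan, of the dystrophin complex, 0.30 ± 0.08), TMEM87B (a Golgi membrane protein, 0.16 ± 0.05) and FBXO22 (a ubiquitin ligase subunit, 0.09 ± 0.04). On the lower side CLSTN2, a calcium-binding membrane protein of the cadherin superfamily, lay at 8.60 to 9.17 at E13 and 9.23 to 9.69 at E12 (-0.46 ± 0.10, adjusted p = 0.326). The bicarbonate transporter SLC4A4 lay at 6.02 to 6.23 at E13 and 6.35 to 6.77 at E12, a difference of -0.36 ± 0.08. NRIP2, a nuclear receptor-interacting protein, lay at 10.17 to 10.55 at E13 and 10.60 to 10.95 at E12 (-0.35 ± 0.09). CRMP1, a cytoskeletal regulator of growing axons, differed by -0.30 ± 0.09, JMJD4, a protein hydroxylase, by -0.21 ± 0.06, and IMMT, which shapes the cristae of mitochondria, by -0.17 ± 0.04. CAP2, an actin-binding protein of muscle and other cells named here after its values were seen, lay at 7.36 to 7.71 at E13 and 7.71 to 8.02 at E12 (-0.34 ± 0.06, adjusted p = 0.225).

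Genes of early embryonic tissue were mostly lower at E13, with 13 negative and 2 positive differences among 15 and a median of -0.12 (-0.07 with the array code as a block and -0.07 without E12 femur replicate 2). HMGA2, a chromatin protein that is shut down as tissues mature, lay at 7.70, 7.93 and 8.28 (lowest, median and highest) at E13 and at 7.97, 8.22 and 8.32 at E12. At E13, 4 of 6 arrays were below the E12 range, and the difference was -0.26 ± 0.10 (adjusted p = 0.534). IGF2BP3, an RNA-binding protein of fetal tissue, and HMGB3, both described above, also belong here, as does the adhesion molecule CDH2 of condensing mesenchyme (-0.18 ± 0.09). Limb patterning genes had 9 negative and 3 positive differences, with a median of -0.10. With the array code as a block there were 6 of each and a median of -0.02, and without E13 femur replicate 1 the median was -0.03. LMX1B, which specifies the dorsal side of the limb, lay at 5.75 to 6.10 at E13 and 6.07 to 6.65 at E12 (-0.44 ± 0.11, adjusted p = 0.326), a difference that was -0.22 with the array code as a block. HOXC10, a hindlimb homeobox gene, differed by -0.66 ± 0.26, with -1.15 in the femur and -0.17 in the TBT (adjusted p of the interaction = 1, limma). Its values were low, at 4.55 to 5.23 at E13 and 4.67 to 6.59 at E12, and its difference was -0.36 with the array code as a block. TWIST2, of the osteoblast and periosteum list, encodes a transcription factor that holds back osteoblast differentiation. It lay at 7.76 to 8.39 at E13 and 8.18 to 8.94 at E12 (-0.41 ± 0.10, adjusted p = 0.326).

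Genes of S phase were mostly lower at E13 by small amounts. Of 39 S phase genes, 32 had a negative and 6 a positive difference, with a median of -0.07 in a list whose mean level was 7.87 to 7.98 at E13 and 7.89 to 8.03 at E12. An unadjusted p under 0.05 was found for 3 of them, CHAF1A, RPA1 and TIPIN. Their share is 7.69%, against 6.71% of all genes with 1 symbol. All 3 were lower at E13, and 283 of all 7122 genes were lower at such a p. Of 57 genes of G2 and mitosis, 28 had a positive and 27 a negative difference, with a median of 0. CHAF1A, which assembles chromatin on new DNA, lay at 6.80 to 7.13 at E13 and 7.05 to 7.27 at E12 (-0.20 ± 0.07, adjusted p = 0.521). RPA1, the single-strand DNA-binding protein, differed by -0.14 ± 0.05, and TIPIN, which protects stalled replication forks, by -0.16 ± 0.07. PTTG2, listed as a securin of mitosis, differed by 0.14 ± 0.06.

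The cartilage matrix programme itself differed little between the days. Its 25 genes had 14 positive and 11 negative differences and a median of 0.04, and the mean level was 11.09 ± 0.07 at E13 and 11.05 ± 0.05 at E12 (SD, n = 6 arrays each). Only 1 of them (4%, against 6.71% of all genes with 1 symbol) had an unadjusted p under 0.05, MATN3, a matrilin of growth plate matrix. It lay at 10.95, 11.24 and 11.65 (lowest, median and highest) at E13 and at 10.34, 10.89 and 11.16 at E12. At E13, 3 of 6 arrays exceeded every E12 array, and the difference was 0.43 ± 0.16 (adjusted p = 0.497). CHAD, the cell-binding protein chondroadherin, differed by 0.14 ± 0.08, the sulphate transporter SLC26A2, on which proteoglycan sulphation depends, by 0.11 ± 0.06, the collagen IX chain COL9A1 by 0.07 ± 0.05, and the link protein HAPLN1 by 0.05 ± 0.05. ACAN differed by 0.01 ± 0.05 and MATN1 by -0.03 ± 0.05. Over the 7 genes taken as the identity of growth cartilage, 5 differences were positive and 2 negative, with a median of 0.04. Chondrocyte transcription factors had 6 positive and 12 negative differences (median -0.03), but 12 positive and 6 negative with the array code as a block (median 0.04), and a median of 0.03 without the arrays coded 05. SOX9, which directs cells into cartilage, lay at 9.25 to 9.71 at E13 and 9.09 to 9.71 at E12 (0.08 ± 0.11), and its partner SOX5 differed by -0.09 ± 0.06. NFIB, the only one of these factors with an unadjusted p under 0.05, differed by -0.22 ± 0.09 (adjusted p = 0.589).

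**Figure D3:**
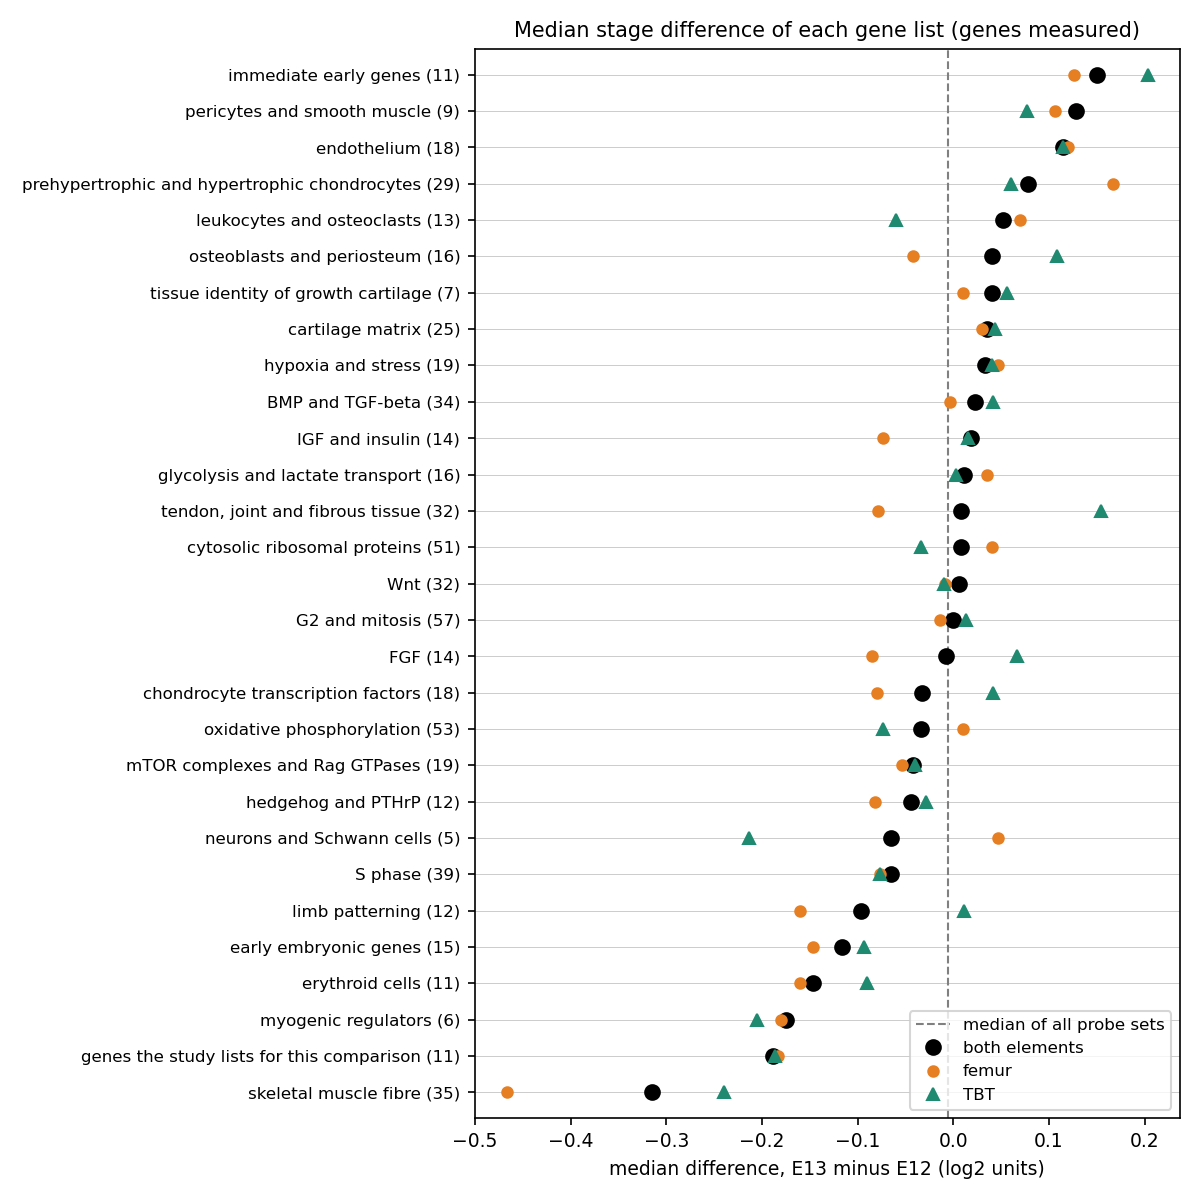
Median difference between E13 and E12 (x axis, log2 units) of each of 29 gene lists (y axis, with the number of genes measured), for both elements together (black), femur (orange) and TBT (green), beside the median of all probe sets (dashed). Skeletal muscle fibre genes lie lowest at -0.32, while pericyte, endothelial and immediate early genes lie highest at 0.12 to 0.15.

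Signalling pathways showed mixed signs. In the Wnt list 18 of 32 differences were positive (median 0.01). The secreted Wnt inhibitor WIF1 had a median of 6.2 at E13 and 5.80 at E12 and differed by 0.42 ± 0.12 (adjusted p = 0.392). SFRP2, another secreted Wnt modulator, had a median of 7.98 at E13 and 8.46 at E12 and differed by -0.44 ± 0.20, or -0.15 with the array code as a block. LEF1, a transcription factor that carries the Wnt signal, differed by 0.15 ± 0.08. Of 34 BMP and TGF-beta genes, 19 had a positive and 15 a negative difference (median 0.02). An unadjusted p under 0.05 was found for 3 (8.82%, against 6.71% of all genes with 1 symbol), all lower at E13. These were NOG, the BMP antagonist noggin (-0.23 ± 0.10), BMPR1B, a BMP receptor of cartilage (-0.24 ± 0.10), and SOSTDC1, an antagonist of BMP and Wnt (-0.34 ± 0.15). Hedgehog and PTHrP genes had 4 positive and 8 negative differences (median -0.04), with SCUBE2 in front. FGF genes had 7 of each (median -0.01): ETV1, a transcription factor downstream of FGF receptors, lay at 9.28 to 9.52 at E13 and 9.46 to 9.70 at E12 (-0.20 ± 0.06, adjusted p = 0.402), and DUSP6, a feedback phosphatase of the same pathway, differed by 0.16 ± 0.11. IGF and insulin genes had 8 positive and 6 negative differences (median 0.02). HTRA1, the only one with an unadjusted p under 0.05, differed by 0.23 ± 0.10 (adjusted p = 0.627), and IGF1 by -0.20 ± 0.15.

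The medians of the glycolysis, hypoxia and mTOR lists stayed close to that of all probe sets, while immediate early genes had the highest median of any list. Glycolysis genes had 9 positive and 7 negative differences (median 0.01). For the enolase ENO2, 5 of 6 E13 arrays (5.45 to 6.10) lay above the E12 range of 5.35 to 5.65, with a difference of 0.35 ± 0.09 (adjusted p = 0.326). Hypoxia and stress genes had 12 positive and 7 negative differences (median 0.03). At an unadjusted p under 0.05, 3 of them were higher and 1 lower at E13 (21.1% together, against 6.71% of all genes with 1 symbol). NDRG1, a gene induced by low oxygen, differed by 0.35 ± 0.12, and HMOX1, the haem oxygenase, by -0.23 ± 0.10. Among mTOR complex genes 6 differences were positive and 13 negative (median -0.04), with PRR5, a subunit of mTOR complex 2, at -0.28 ± 0.12. Immediate early genes, which respond within minutes to growth factors, load and handling of tissue, had 10 positive and 1 negative difference among 11, with a median of 0.15. Their mean level was 7.96 to 8.20 at E13 and 7.95 to 8.02 at E12. KLF2, a shear-responsive transcription factor, had 5 of 6 E13 arrays (7.83 to 8.60) above the E12 range of 7.85 to 7.95 (0.25 ± 0.11, adjusted p = 0.610), and CCN2, a matrix-associated growth regulator, differed by 0.24 ± 0.11. Among 5 genes of neurons and Schwann cells 3 differences were negative, with a median of -0.07 that was 0.03 without E13 TBT replicate 1. The neurofilament NEFM lay at 3.34 to 4.30 at E13 and 3.93 to 4.43 at E12, far below the array medians.

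Femur and TBT were next taken apart. In the femur no array code occurs at both stages, so stage and code cannot be told apart there. The interaction of stage and element shares this limit. Within the femur 0 probe sets were called and 585 (5.32%) had an unadjusted p under 0.05. Within the TBT 0 were called and 645 (5.86%) had such a p. Across the 11004 probe sets the femur difference and the TBT difference had a Pearson's r of 0.196 and a Spearman's rho of 0.172, and genes are not independent replicates. The sign was shared by 55.3% of all probe sets, by 395 of the 585 (67.5%) with such a p in the femur and by 418 of the 645 (64.8%) with such a p in the TBT. MMP9 (0.70 in femur, 0.76 in TBT), EGFL7, EYA1 (-0.69 in femur, -0.72 in TBT) and OCM3 (-0.83 in femur, -0.75 in TBT) had nearly equal differences in both. They were named for a low p over both elements together, which favours equal differences, so they are no evidence that the elements agree. The interaction of stage and element was called for 0 probe sets (0%), its lowest adjusted p was 0.863, and 382 (3.47%) had an unadjusted p under 0.05.

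**Figure D4:**
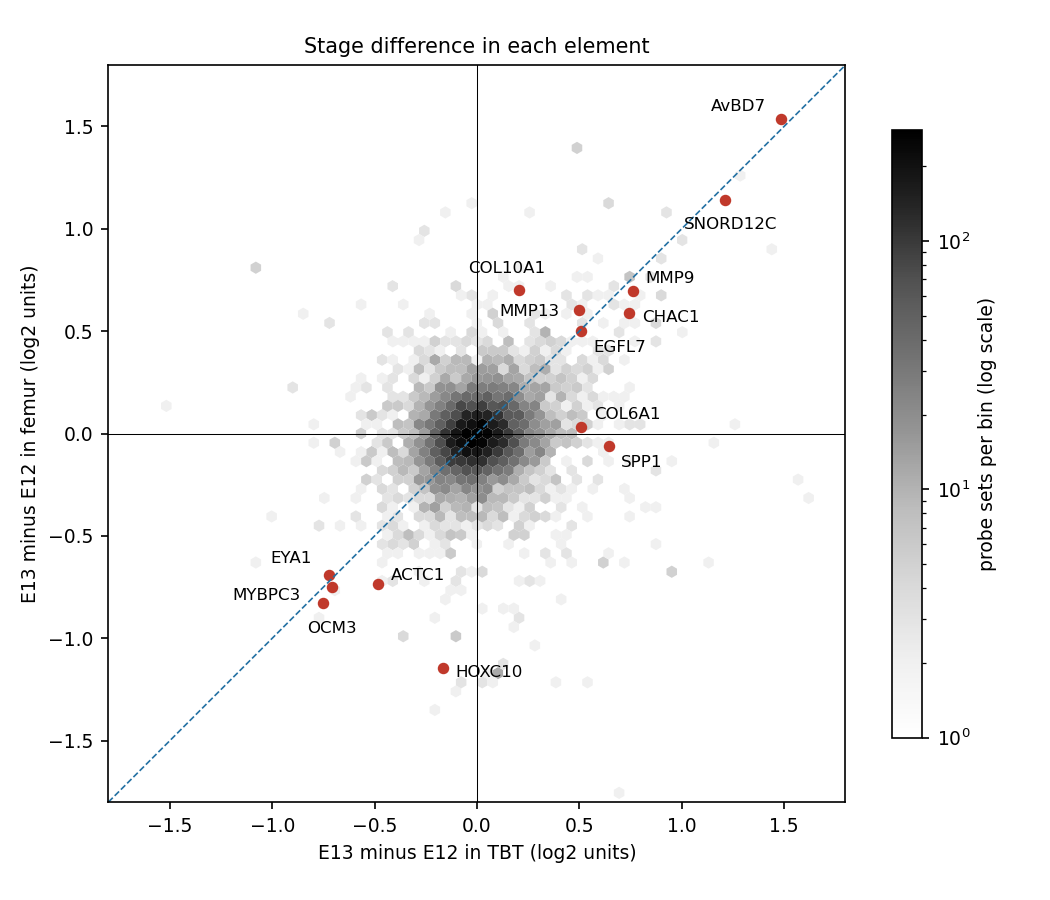
Difference between E13 and E12 in the femur (y axis) against that in the TBT (x axis), in log2 units, for 11004 probe sets binned by number (grey, log colour scale, with 6 beyond the axes) and 14 genes named in the text (red), with the line of equal difference dashed. MMP9, CHAC1, EGFL7, OCM3 and EYA1 lie near the line, whereas COL6A1 lies at 0.03 in the femur and 0.51 in the TBT, and HOXC10 at -1.15 in the femur and -0.17 in the TBT.

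For fibrous tissue genes the counts by element differed, which was not tested for the list, and the interaction was called for 0 probe sets. Of 32 tendon, joint and fibrous genes, 29 had a positive difference in the TBT (median 0.16) and 10 in the femur (median -0.08), and 16 had a positive difference in both elements together (median 0.01). COL6A1, a chain of the microfibrillar collagen VI, lay at 9.37, 9.64 and 9.36 in E13 femur and 9.39, 9.31 and 9.58 in E12 femur. In the TBT it lay at 9.53, 9.69 and 9.50 at E13 and at 8.97, 9.17 and 9.05 at E12, without overlap. Its difference was thus 0.03 in the femur and 0.51 in the TBT (adjusted p of the interaction = 1, limma). COL6A3, another chain of the same collagen, differed by 0.05 in the femur and 0.50 in the TBT (adjusted p of the interaction = 1, limma). The hyaluronan synthase HAS2 differed by 0.18 in the femur and 0.25 in the TBT. Genes of cytosolic ribosomal proteins had 40 positive and 10 negative differences in the femur (median 0.04) and 15 positive and 35 negative in the TBT (median -0.03), for 30 and 21 overall. Oxidative phosphorylation genes had 29 positive and 23 negative differences in the femur (median 0.01) and 9 positive and 44 negative in the TBT (median -0.07), for 17 and 36 overall. COX7A2L, a factor of respiratory supercomplexes, differed by -0.18 in the femur and -0.25 in the TBT.

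The differences beyond 1 log2 unit came largely from elsewhere. There were 25 probe sets with higher and 4 with lower values at E13 by that amount, and 18 of the 25 carry no symbol of a single gene. In 14 of the 25 the lowest 3 of the 6 E12 arrays were those coded 05, against 874 of all 11004. Without the arrays coded 05 all 25 kept a positive difference, while 8638 of all 11004 probe sets kept their sign. The median of the 25 was then 0.81 instead of 1.15. Unlike the 11004, the 25 were picked for their size in arrays most of which remain. A kept sign and a smaller median are thus favoured in advance, and these counts are no independent evidence. Some of the 25 share the same values, so they are not all separate measurements. SNORD12C, a small nucleolar RNA that guides ribosomal RNA modification, is an example chosen after its values were seen. It lay at 7.47, 8.44 and 7.82 in E13 femur and 8.29, 8.29 and 8.47 in E13 TBT. At E12 it lay at 6.65, 6.02 and 7.64 in femur and 7.31, 5.94 and 8.16 in TBT, with the low values in the arrays coded 05. The difference was 1.18 ± 0.36 (adjusted p = 0.402), 0.55 with the array code as a block and 0.48 without the arrays coded 05. TAF1D, a transcription factor of ribosomal RNA genes, stayed under 1 log2 unit and was also chosen after its values were seen. It differed by 0.32 ± 0.14 in its brightest probe set, and by 0.14 there without the arrays coded 05. Its other 4 probe sets differed by 0.70 ± 0.16, 0.46 ± 0.15, 0.15 ± 0.10 and 0.08 ± 0.07. What code 05 stands for is not known, and its part in these differences was not tested.

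The 2 largest differences with a gene name, AvBD7 and AvBD6, belonged to granule genes of heterophils, the avian counterpart of neutrophils, and the genes of this paragraph were likewise chosen after their values were seen. AvBD7, a beta-defensin that kills bacteria, lay at 4.47, 7.03 and 6.21 in E13 femur and 5.56, 5.98 and 8.20 in E13 TBT. At E12 it lay at 5.04, 3.70 and 4.36 in femur and 4.24, 5.53 and 5.51 in TBT. Among E13 arrays 5 of 6 exceeded every E12 array, but they spanned 4.47 to 8.20, and the difference of 1.51 ± 0.53 had an adjusted p of 0.469. AvBD6 differed by 1.29 ± 0.48 and AvBD1 by 1.03 ± 0.38, and both were brightest in E13 TBT replicate 3. The other measured beta-defensins had smaller differences, AvBD4 of 0.26 ± 0.19 and AvBD5 of 0.10 ± 0.17. LECT2, a secreted chemotactic protein of leukocytes, differed by 1.06 ± 0.45 and was also brightest there, as was LYG2, a goose-type lysozyme (1.01 ± 0.33). CA4, a membrane-bound carbonic anhydrase, differed by 1.12 ± 0.38 and was brightest in E13 femur replicate 2 and E13 TBT replicate 3. Leaving out each array in turn gave 1.15 to 1.83 for AvBD7. With the array code as a block it was 1.51. LECT2 was 0.69 without E13 TBT replicate 3 and 0.69 with the code block, and LYG2 was 0.66 with the code block.

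**Figure D5:**
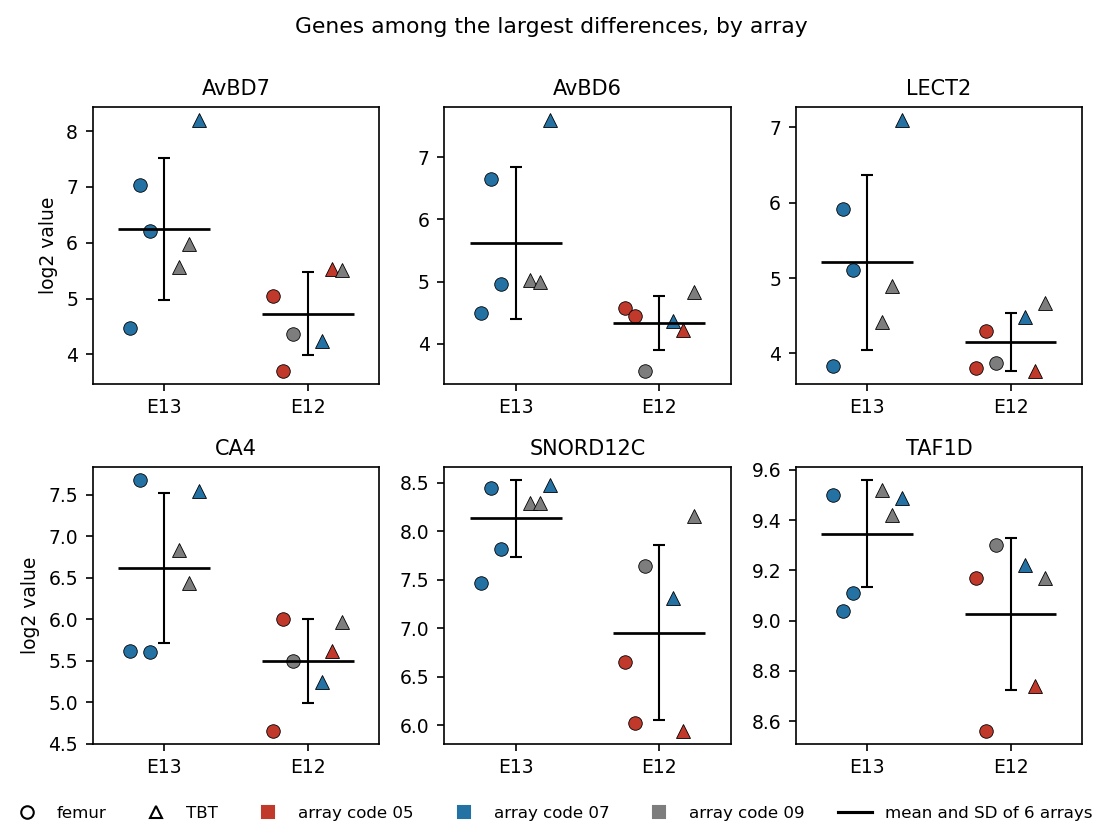
Log2 values (y axis) of 6 genes in the 6 E13 arrays (left) and 6 E12 arrays (right), with circles for femur, triangles for TBT, colours for the array code, and bars for the mean and SD of 6 arrays. AvBD7, AvBD6, LECT2, CA4 and SNORD12C differed by more than 1 log2 unit, and TAF1D by 0.32. The defensins AvBD7 and AvBD6 and LECT2 are spread widely at E13 and peak in a single TBT array, while in SNORD12C the 3 lowest E12 values are the arrays coded 05.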

How the data were processed

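Log2 values as deposited were used without further scaling. The authors obtained them from Affymetrix chicken arrays by robust multi-array averaging (RMA), which corrects background, normalises by quantiles and summarises each probe set. Per the labels the affy package was used, whose version, like a genome build, is not given in the sources used here. Of 20804 probe sets, 12300 carry 1 gene symbol, 256 several and 8248 none, and 17 list names were matched through an alias. Those with a standard deviation above 10 on the linear scale over all 23 arrays (11004) were kept.

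Stage was tested with limma 3.58.1 in R 4.3.3, with element as a covariate over the 12 arrays, and by element and for the interaction from 4 group means. Adjustment was that of Benjamini and Hochberg, with calls under 0.05. P-values measure only the spread between these pooled samples, which may be technical, and the number of arrays limits the precision. A gene with several probe sets was read from the brightest. The fit was tested on simulated data.

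Named genes were those whose arrays did not overlap between stages (up to 10 each way by p), those the study lists, up to 4 of each list with the lowest p, and 10 genes taken by name. Exceptions are marked in the text. Members and lists were chosen with earlier results of these data known. No list was tested. Lists are described by their counts and medians. Probe sets without a single gene symbol (3587 of the 11004) were fitted and counted but entered no gene list. The E15 arrays entered the filter on spread and the alternative with group means over all 23 arrays, but not the main fit. Scanner images did not enter, and no sequences are shown. Alternatives were other filters, normalisations, array weights, blocks, a random block, SAM (the methods' test, rewritten here with 100 permutations) and leaving out each array.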

Additional observations from a re-analysis of the deposited data

Results flagged for a closer look

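In 5 genes a single array stood apart from the other 5 of its stage by Dixon's test, out of 252 groups of 6 examined, where chance flags about 1 in 20. ALPL was 8.40 in E13 femur replicate 1, below the others at 8.87 to 9.06. COL10A1 was 9.05 in E12 femur replicate 2, below the others at 10.54 to 11.36. SLC4A4 was 6.77 in E12 femur replicate 1, above the others at 6.35 to 6.47, and RPA1 was 8.84 in the same array, below the others at 8.98 to 9.04. CCN2 was 9.33 in E12 TBT replicate 3, below the others at 9.59 to 9.73.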

How the results depend on the processing

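Several alternatives leave a gene's difference as it is and so cannot reverse it. These are the filters, the group means, the replicate and random blocks, the intensity trend and the removal of repeated values. Most genes were also named for a low p or a lack of overlap in these same arrays, which favours a stable direction. With these limits, direction held for 89 of 97 genes under each of the 25 alternatives that measured them. The 97 are the genes named above other than HTRA1 and NFIB. Exceptions were ACAN (-0.0349 with a further quantile normalisation, and from -0.00148 without E12 TBT replicate 2, E13 TBT replicate 2 or E13 TBT replicate 3 to 0.03 over the arrays left out in turn), MYOD1 (0.26), ACTA1 (0.29) and SPI1 (0.10) within array code 07, and VEGFA (-0.02), SOSTDC1 (0.04), LECT2 (-0.015) and AvBD5 (-0.075) within code 09, where each value rests on very few arrays and the cause was not tested.

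The count of called probe sets between the stages stayed 0 under most alternatives and was 5 with the replicate number as a block, among them MMP9, ACTC1 and OCM3 (adjusted p = 0.0392 for MMP9, 0.0383 for ACTC1 and 0.0144 for OCM3). It was 2 with an intensity trend, MMP9 included (adjusted p = 0.0280), 2 by SAM (2 higher and 0 lower at E13) and 1 with array weights. In the femur the count was 1 with 8 group means over all 23 arrays. In the TBT it was 1 with array weights and 1 with the replicate block. Leaving out each array in turn gave 0 to 1 between the stages (1 without E12 femur replicate 3 and 1 without E12 TBT replicate 3), 0 to 1 in the femur (1 without E13 femur replicate 2), 0 to 1 in the TBT (1 without E12 femur replicate 3) and 0 for the interaction. The labels do not say whether the replicate numbers pair samples. Residuals of femur and TBT with 1 number and stage correlated at -0.04 to 0.04. Those with 1 number at different stages correlated at -0.04 to 0.21 (2 of 12 pairs above 0.1). These pairs joined E13 and E12 femur, in replicate 2 (0.21) and replicate 3 (0.19). Pairs of different number lay at -0.17 to 0.13 (3 of 36 above 0.1). What arrays of 1 number share was not tested. The replicate block changed no other call.

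In the femur no code occurs at both stages, so stage and code cannot be told apart there. The code block therefore links the femur arrays of both stages only through TBT arrays. The arrays coded 05 are all E12, so stage and code cannot be told apart for them either. Without them, an alternative chosen after seeing the data, 0 probe sets were called between the stages (673 at an unadjusted p under 0.05). With the code as a block, the difference of 19 of the 97 genes moved by more than 1.5 times. Of the 29 list medians, 8 changed sign when some array was left out (leukocytes and osteoclasts, neurons and Schwann cells, fibrous tissue, glycolysis, Wnt, FGF, IGF and ribosomal proteins) and 3 with the code as a block (chondrocyte transcription factors, FGF and ribosomal proteins). By more than 1.5 times or in sign, 23 moved without some array and 14 with the code block. The small number of arrays bounds how precise each value can be.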
